A study of Mus musculus with 2 samples.

Results

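The genes described here are 10 genes of the circadian clock, Dbp, Tef, Hlf, Nr1d1, Nr1d2, Per1, Per2, Per3, Arntl and Cry1, read in single cells of the mouse prefrontal cortex. All 10 were found by symbol among the 32589 features of the deposited tables. They were chosen by name with their values in these libraries already known, so what follows describes them and tests nothing. C57BL/6 mice received corticosterone, the main glucocorticoid hormone of rodents, or vehicle by oral gavage, a regime used as a depression model. Cells with low CD45 and with CD11b on their surface, the usual gate for microglia, were sorted from enzyme-digested tissue and sequenced with a Singleron GEXSCOPE kit, 1 library per group. Dose, duration, age, sex, the number of animals and the time of day of collection were not given in the sources used here. The deposited files carry the words wild type and depression, and were assigned to vehicle and corticosterone through the titles of the sample records, on which every direction below rests. With 1 library per group, the treatment cannot be told apart from the library, or from the time of day at which its tissue was taken.

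The clock is a feedback loop of transcription. The proteins of Arntl (also called Bmal1) and Clock pair and switch on genes through E-box sequences, among them the Period and Cryptochrome genes, whose proteins return to the nucleus and hold that pair in check. The nuclear receptors REV-ERB alpha and beta, encoded by Nr1d1 and Nr1d2, repress Arntl, so that Arntl peaks at the opposite time of day from them in most tissues. Dbp, Tef and Hlf encode the PAR bZIP factors, which bind D-box sequences and carry the rhythm to further genes. Per1 is also a direct target of the glucocorticoid receptor in many tissues, and glucocorticoids can set the phase of clocks outside the brain's central pacemaker. Microglia, like other myeloid cells, hold a clock of their own.

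The sequences below show letters that match known clock elements, and for Arntl a window without any, in the 250 bases before each gene's start in the RefSeq promoter table (build GRCm38.p6). The table held 9 of the 10 genes and lacked Per2. Both strands were searched for the E-box CACGTG, the E-prime box CACGTT, the D-box TTATGTAA, the REV-ERB half-site AGGTCA, the cyclic AMP response element TGACGTCA and the palindromic glucocorticoid response element. Per3 and Arntl are shown over the whole window, the first because it held 2 D-boxes and the second because it was the gene that was higher in the corticosterone library in microglia. Arntl has 2 starts in the promoter table, and only the window of its upstream start is shown. Neither window held a match. The other genes are shown over 30 bases around 1 match. Each line runs 5′ to 3′ on the gene's strand, with the matched letters in capitals.
Per3, chr4:151044666-151044915, minus strand: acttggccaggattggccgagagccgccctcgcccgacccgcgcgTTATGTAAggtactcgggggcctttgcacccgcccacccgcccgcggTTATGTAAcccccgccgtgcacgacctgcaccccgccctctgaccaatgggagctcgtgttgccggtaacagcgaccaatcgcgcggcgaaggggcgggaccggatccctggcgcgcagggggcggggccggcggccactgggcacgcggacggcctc
Arntl, chr7:113207215-113207464, plus strand: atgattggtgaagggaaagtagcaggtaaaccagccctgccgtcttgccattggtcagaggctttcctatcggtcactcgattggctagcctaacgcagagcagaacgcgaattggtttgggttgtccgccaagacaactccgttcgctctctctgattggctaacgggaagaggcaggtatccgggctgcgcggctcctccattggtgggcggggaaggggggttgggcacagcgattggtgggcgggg
Tef, E-box at its upstream start, chr15:81802534-81802563, plus strand: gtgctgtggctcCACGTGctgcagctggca
Tef, E-box at its downstream start, chr15:81811264-81811293, plus strand: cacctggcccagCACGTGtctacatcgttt
Per1, E-box, chr11:69098771-69098800, plus strand: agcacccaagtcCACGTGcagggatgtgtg
Cry1, E-box, chr10:85185097-85185126, minus strand: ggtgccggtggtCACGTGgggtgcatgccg
Nr1d1, E-prime box read on the opposite strand, chr11:98775388-98775417, minus strand: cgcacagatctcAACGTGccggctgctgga
Nr1d2, REV-ERB half-site, chr14:18239166-18239195, minus strand: gattggaagaagAGGTCAggaccgctcgtt
Hlf, cyclic AMP response element, chr11:90390918-90390947, minus strand: atcggcgcgcggtgcgggcccTGACGTCAc

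The D-boxes of Per3 lie 205 and 158 bases before its start, and 0.811% of the 32536 promoters in the table held a D-box. E-boxes stood before Tef, Per1 and Cry1, against 6.04% of all promoters. The E-prime box was found before Nr1d1 and Cry1 (3.87% of all promoters), the REV-ERB half-site before Nr1d2 and Per1 (14.04%) and the cyclic AMP response element before Hlf (1.56%). No searched motif stood in these windows of Dbp and Arntl, and the glucocorticoid response element, present in 0.0307% of all promoters, stood before none of the 9 genes. A match is a run of letters and not a measured site, and a missing match concerns only these letters in this window.

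After a filter on cells (at least 500 UMIs, 300 genes and at most 20% mitochondrial UMIs, where a UMI counts 1 captured RNA molecule), 10500 vehicle and 17883 corticosterone cells remained, with medians of 3220.5 and 3961 UMIs. The median mitochondrial share of UMIs was 2.61% in vehicle and 4.15% in corticosterone microglia, 3.92% and 4.34% in border macrophages and 1.24% and 0.650% in neutrophils (classes defined next), and its part in the differences below was not tested. The libraries shared 104 cell barcodes. Classes were built from marker genes: 8249 vehicle and 15820 corticosterone cells were microglia, 471 and 570 were border macrophages (the macrophages of meninges and vessel walls), and 393 and 347 were neutrophils, short-lived granulocytes of blood and bone marrow. Every marker of its own list was detected in each class, and the 10 genes leading each class over all other cells held 8 macrophage markers in macrophages and 10 neutrophil markers in neutrophils. Those leading microglia held none of the microglia markers. None of the 10 microglia markers, P2ry12 and Tmem119 among them, was at 0 in border macrophages or neutrophils. Their median level in border macrophages was 0.651 times that in microglia in the vehicle library (range 0.600 to 0.893) and 0.511 times in the corticosterone library (0.482 to 1.55). In neutrophils it was 0.464 times (0.425 to 0.493) and 0.242 times (0.212 to 0.261). RNA of microglia-marker genes was thus read in these barcodes as well, and more of it in the vehicle library.

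In microglia, 9 of the 10 clock genes had lower levels in the corticosterone library than in the vehicle library and 1, Arntl, had a higher level. By point value the PAR bZIP factors had the largest differences, from 6.38-fold for Tef to 75.3-fold for Hlf. The interval of Tef overlaps those of Nr1d1, Per2 and Per3, so beyond counting error this holds only for Dbp and Hlf. Per1 differed least of the 9 lower genes, by 2.24-fold. Levels are UMIs of the gene per 1000000 UMIs of the class (CPM), ratios are corticosterone over vehicle on the log2 scale, and the 95% intervals in parentheses cover counting error only, since no replicate library exists. Levels of different genes are not set against each other.

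Among the PAR bZIP factors in microglia, Dbp, a strongly rhythmic output gene in many tissues, had 838 UMIs in the vehicle library and 141 in the larger corticosterone library. These are 23.1 CPM (21.5 to 24.7) and 1.90 CPM (1.60 to 2.24), a log2 ratio of -3.60 (-3.87 to -3.35), or 12.2-fold lower. The Dbp intervals of the libraries lie far apart. Tef had 1533 UMIs, or 42.2 CPM, against 492 UMIs, or 6.62 CPM, with a log2 ratio of -2.67 (-2.82 to -2.53). Hlf, first known as a partner in a leukaemia fusion gene, had 478 UMIs, or 13.2 CPM, against 13 UMIs, or 0.175 CPM. Its log2 ratio of -6.23 (-7.15 to -5.45) was the lowest of the 10, and the corticosterone library held a UMI of Hlf in 0.0632% of microglia. A single vehicle cell carried 20 of the Hlf UMIs.

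The REV-ERB genes, the repressors of Arntl, were also lower. Nr1d1 had 237 UMIs, 6.53 CPM, in vehicle microglia and 78 UMIs, 1.05 CPM, in corticosterone microglia, with a log2 ratio of -2.64 (-3.03 to -2.26). Nr1d2 had 1468 UMIs, 40.4 CPM, against 944 UMIs, 12.7 CPM, with a log2 ratio of -1.67 (-1.79 to -1.55). Nr1d1 thus differed more than Nr1d2, and their intervals do not overlap. Arntl, their target and the transcriptional activator of the loop, had 359 UMIs, 9.89 CPM (8.89 to 10.96), in the vehicle library and 1162 UMIs, 15.6 CPM (14.7 to 16.6), in the corticosterone library. It was 1.58-fold higher, a log2 ratio of 0.66 (0.49 to 0.84), which stays under the 2-fold size used for counting below.

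The repressor arm, the Period and Cryptochrome genes, was lower throughout in microglia. Per1 had 2713 UMIs, 74.7 CPM, against 2479 UMIs, 33.3 CPM, and a log2 ratio of -1.16 (-1.24 to -1.08). Per2 had 197 UMIs, 5.42 CPM, against 64 UMIs, 0.861 CPM, and a log2 ratio of -2.66 (-3.09 to -2.24). Per3, with its D-boxes shown above, had 393 UMIs, 10.8 CPM, against 138 UMIs, 1.86 CPM, and a log2 ratio of -2.54 (-2.83 to -2.26). Per1 therefore differed less than Per2 and Per3, whose intervals overlap each other and not that of Per1. Cry1, which encodes the partner of the Period proteins, had 234 UMIs, 6.44 CPM, against 106 UMIs, 1.43 CPM, and a log2 ratio of -2.18 (-2.52 to -1.84).

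**Figure D1:**
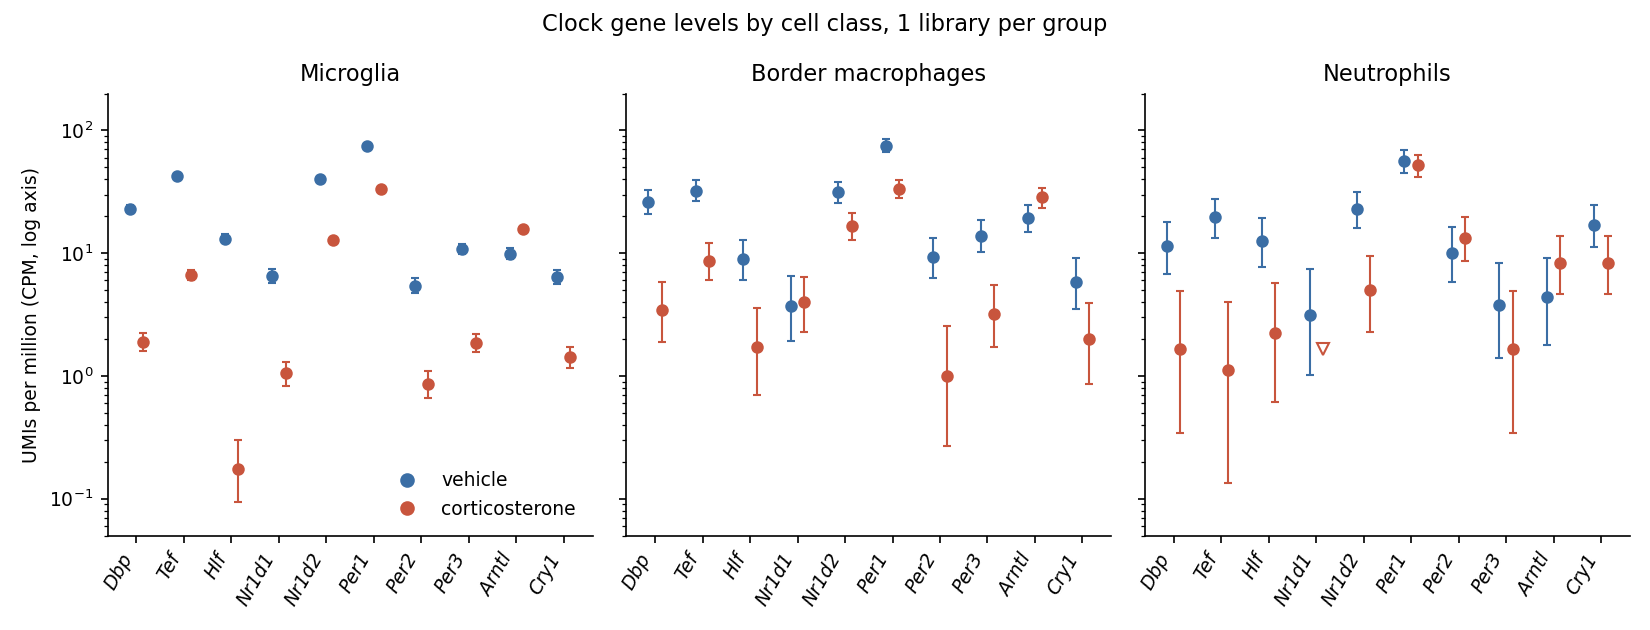
CPM (log axis) of the 10 clock genes in microglia, border macrophages and neutrophils of the vehicle (blue) and corticosterone (red) libraries; bars are exact 95% counting intervals, and the open triangle marks the floor of 3 UMIs for a gene with 0 UMIs. In microglia the red points sit below the blue ones for every gene but Arntl, while in neutrophils Per1 and Per2 of the libraries overlap.

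A gene was counted as past the fold when it differed by 2-fold or more at a mean level of at least 5 CPM, a level that 7 of the 10 clock genes reached in microglia. Of these, 6 were lower and 0 higher, where 1.95% of the 9685 genes at that level were lower and 2.22% higher. Dbp, Hlf and Per3 reached it only through the vehicle library, with under 5 CPM in the corticosterone library. Per3 and Hlf were just inside, at means of 6.34 and 6.67 CPM, and Cry1, Nr1d1 and Per2 just outside, at means of 3.93, 3.79 and 3.14 CPM. Over all genes with more than 3 UMIs in a library, 9 of the 10 clock genes were lower by 2-fold or more, where 10.7% of 17023 genes were, and 0 were higher, where 5.22% were. The median log2 ratio of the 10 was -2.59, and that of all these genes was -0.06. As the genes were chosen with these ratios known, the counts describe the list and support nothing further.

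Corticosterone microglia were the deeper cells, with a median of 3999 UMIs against 3252, and each cell was therefore thinned to 1000 UMIs before shares of cells were compared. The 7674 vehicle and 15645 corticosterone microglia deep enough entered, and 575 and 175 were left out. Dbp was detected in 168 vehicle cells and in 33 corticosterone cells, 0.211% of the latter (8.47% and 0.815% unthinned), and Tef in 4.47% and 0.601% (14.7% and 2.87% unthinned). Per1 was detected in 7.23% and 3.29% (24.1% and 12.9% unthinned). Arntl went the other way, with 0.951% and 1.48% (3.76% and 6.38% unthinned). In thinned microglia, 79.2% of vehicle cells and 92.9% of corticosterone cells held no UMI of any of the 10 genes, and 2.08% and 0.256% held exactly 2 of them.

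**Figure D2:**
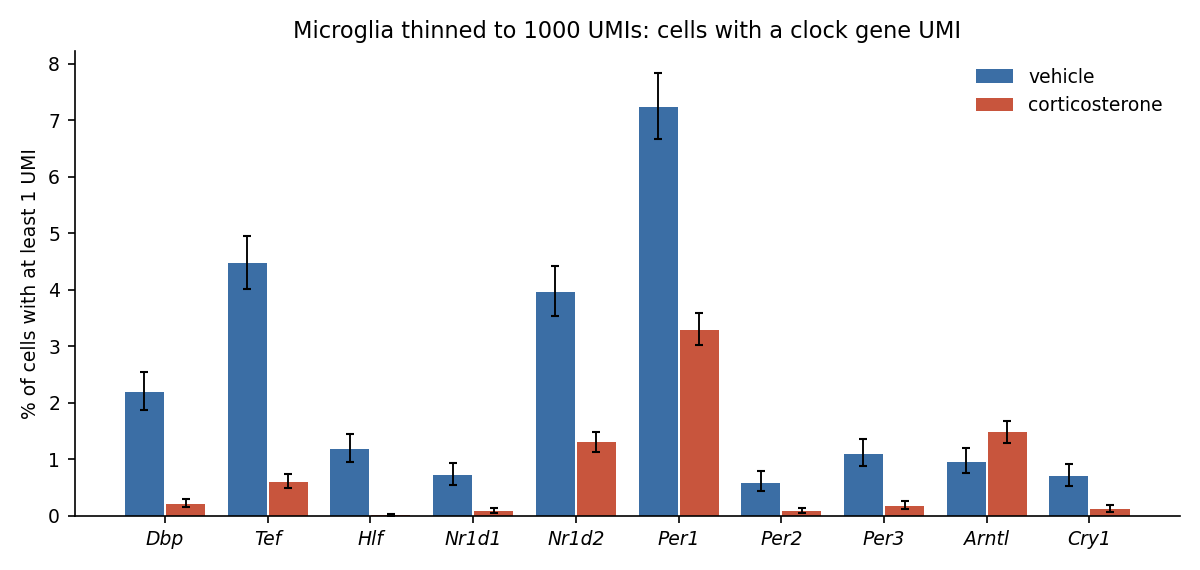
Percent of microglia with at least 1 UMI of each clock gene after every cell was thinned to 1000 UMIs (7674 vehicle cells in blue, 15645 corticosterone cells in red); bars start at 0 and the error bars are exact 95% binomial intervals. The red bar is shorter for every gene but Arntl.

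These shares count cells with a captured molecule and not cells that express the gene. In the 87 thinned erythroid barcodes of the vehicle library, maturing red cells that transcribe little, Dbp was detected in 4.60% (1.27% to 11.4%), which is not below its share in microglia. Before thinning, erythroid barcodes carried microglia markers at a median of 0.669 times their level in microglia, so they offer no background free of microglial RNA. In microglia split by depth into 4 tiers of UMIs per cell, each gene kept its direction in every tier, with Hlf and Nr1d1 set to a floor of 3 UMIs in the corticosterone cells of the shallowest. The log2 ratio ran from -3.73 to -2.95 for Dbp, from -2.73 to -2.60 for Tef, from -1.30 to -1.08 for Per1 and from 0.54 to 1.21 for Arntl.

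Border macrophages gave the same directions as microglia for 9 of the 10 genes, the exception being Nr1d1. Of all 12501 genes with more than 3 UMIs in a library, 6517 were lower and 5984 higher. The counting interval lay below 0 for 8 clock genes, above 0 for Arntl, and spanned 0 for Nr1d1. How many of all genes had such intervals is not given. In this class 8 of the 10 genes reached a mean of 5 CPM, and 6 of them were lower by 2-fold or more and 0 higher, where 2.78% of 9811 genes were lower and 2.33% higher. Of the 6, Dbp, Hlf, Per2 and Per3 reached that mean only through the vehicle library. With more than 3 UMIs in a library, 7 of the 10 were lower, where 7.1% of 12501 genes were, and 0 higher, where 5.54% were. The median log2 ratio of the 10 genes was -1.73, beside -0.02 for all genes with more than 3 UMIs in a library. The smaller number of cells makes these intervals wider than those of microglia.

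Dbp in border macrophages had 85 UMIs, 26.2 CPM, in the vehicle library and 14 UMIs, 3.47 CPM, in the corticosterone library, a log2 ratio of -2.92 (-3.85 to -2.09). Tef had 105 against 35 UMIs (32.4 and 8.67 CPM), a log2 ratio of -1.90 (-2.50 to -1.34). Hlf had 29 against 7 UMIs (8.95 and 1.73 CPM), a log2 ratio of -2.37 (-3.80 to -1.15). The Hlf difference was smaller here than in microglia, and the intervals of the classes do not overlap. The 7 corticosterone UMIs of Hlf lay in 5 barcodes, with 3 in 1 of them, a clumping that counting intervals do not cover. The REV-ERB genes separated from each other. Nr1d1 had 12 UMIs, 3.70 CPM, against 16 UMIs, 3.96 CPM, with a log2 ratio of 0.10 (-1.07 to 1.31), an interval that does not overlap that of microglia. A single corticosterone barcode carried 4 of the 16. Nr1d2 had 102 against 67 UMIs (31.5 and 16.6 CPM), a log2 ratio of -0.92 (-1.39 to -0.46).

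Per2, a core repressor of the loop, had 30 UMIs, 9.26 CPM, in vehicle border macrophages and 4 UMIs, 0.991 CPM, in corticosterone ones, a log2 ratio of -3.22 (-5.19 to -1.72). Per3 had 45 against 13 UMIs (13.9 and 3.22 CPM) and a log2 ratio of -2.11 (-3.12 to -1.19), and Cry1 had 19 against 8 UMIs (5.86 and 1.98 CPM) and a log2 ratio of -1.56 (-2.97 to -0.31). Per1 had 244 against 135 UMIs (75.3 and 33.4 CPM), and its log2 ratio of -1.17 (-1.49 to -0.86) was within the counting error of that in microglia. Arntl had 63 UMIs, 19.4 CPM (14.9 to 24.9), against 115 UMIs, 28.5 CPM (23.5 to 34.2), a log2 ratio of 0.55 (0.10 to 1.02). Arntl stood at 1.97 times its microglial level in the vehicle library and 1.82 times in the corticosterone library. The microglia markers stood at a median of 0.651 and 0.511 times. The cause of the Arntl level was not tested.

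The border macrophages of each library were then ordered by the share of their UMIs from microglia markers and split into 4 bins of equal size, and the lowest bin, 118 vehicle and 143 corticosterone barcodes, was read alone. There the microglia markers were at a median of 0.169 and 0.0657 times their microglial level. Dbp had 13 UMIs in the vehicle bin and 0 in the corticosterone bin, which is 6.64-fold lower with the 0 set to a floor of 3 UMIs. Its counting interval reaches down to 4.67-fold. Tef had 14 against 2 UMIs and a log2 ratio of -3.42 (-6.60 to -1.30), and Per2 had 8 against 1 UMI and a log2 ratio of -3.62 (-9.09 to -0.72). Arntl had 6 UMIs, 16.0 CPM, against 29 UMIs, 50.4 CPM, a log2 ratio of 1.66 (0.36 to 3.22). Per3 had 7 against 1 UMI and a log2 ratio of -3.42 (-8.92 to -0.46). For Tef, Per2, Per3 and Arntl the ratio was larger in size in this lowest bin than in the whole class, with overlapping intervals. The value of Dbp at the floor lies near its 7.56-fold difference in the whole class. Nr1d2, with 9 against 15 UMIs and a log2 ratio of 0.12 (-1.17 to 1.49), and Hlf, with 2 against 4 UMIs and a log2 ratio of 0.38 (-2.42 to 3.85), were not lower there. Per1 had 22 against 19 UMIs and a log2 ratio of -0.83 (-1.79 to 0.13), smaller in size than in the whole class and with an interval that spans 0. Cry1 had 3 against 1 UMI, too few for a ratio. Nr1d1 had 1 against 8 UMIs and a log2 ratio of 2.38 (-0.51 to 7.86). In the following bins, in order, the log2 ratio of Dbp was -0.83, -3.44 and -3.38, and of Tef -1.17, -1.93 and -1.79. Per3 had -1.40, -2.53 and -1.65, and Arntl 0.67, 0.48 and -0.17. For Dbp, Tef and Per3 in the second bin, and for Arntl in all of these, the intervals span 0. Per2 had 3 against 1 UMI in the second bin, too few for a ratio. The lowest bins held 0.745% microglia-marker UMIs in vehicle and 0.301% in corticosterone, so bins are not matched between the libraries.

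**Figure D3:**
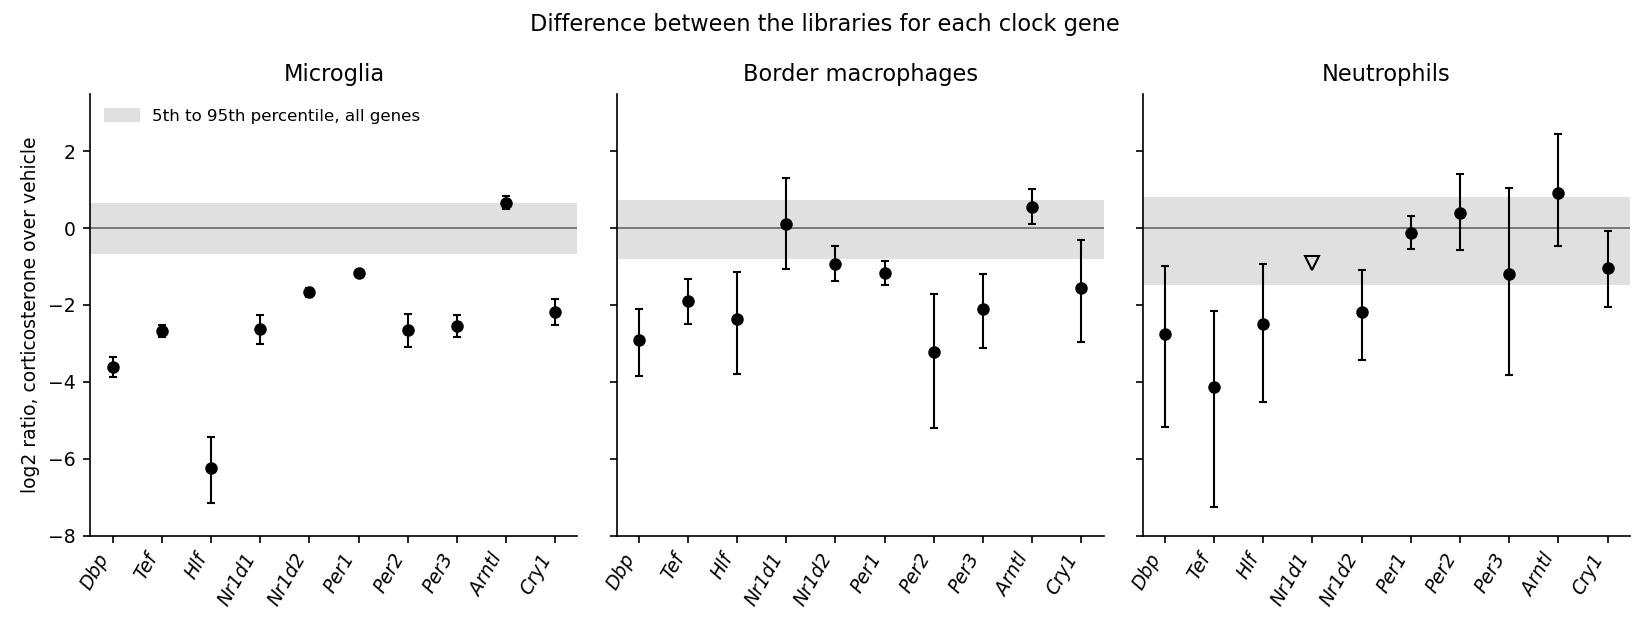
log2 ratio of corticosterone over vehicle for each clock gene in the 3 classes, with exact 95% counting intervals. The open triangle for Nr1d1 in neutrophils is a value computed at a floor of 3 UMIs, and the grey band spans the 5th to 95th percentile of all genes at a mean of at least 5 CPM. Arntl is above 0 in every panel, and Nr1d1 in border macrophages and Per1 and Per2 in neutrophils lie inside the band near 0.

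In neutrophils the genes divided. Dbp, Tef, Hlf and Nr1d2 were lower in the corticosterone library, while the intervals of Per1 and Per2 over the whole class spanned 0. The interval lay below 0 for 6 of the 10 genes and spanned 0 for Per1, Per2, Per3 and Arntl. Of all 11303 genes with more than 3 UMIs in a library, 7311 were lower and 3992 higher. How many of them had such intervals is not given. At a mean of 5 CPM or more, 5 of 8 genes were lower by 2-fold or more and 0 higher, where 12.4% of 9283 genes were lower and 2.69% higher. Of the 5, Dbp, Tef and Hlf reached that mean only through the vehicle library, with under 5 CPM in the corticosterone library. With more than 3 UMIs in a library, 6 of the 10 were lower, where 16.3% of 11303 genes were, and 0 higher, where 4.42% were. Neutrophil ratios of all genes leaned low: of the genes past the fold 82.2% were lower, against 58.8% under TMM scaling and 61.6% under median-of-ratios scaling, which moved all neutrophil ratios up by 0.23 and 0.21. The upper limits of Cry1 and Nr1d1, -0.07 and -0.06, lie closer to 0 than these shifts. Cry1, at -0.80 under TMM and -0.82 under median-of-ratios scaling, was then no longer past 2-fold. That left 4 lower genes, where 7.42% and 7.85% of all genes at that level were lower under these scalings. The median over the 10 clock genes was -1.11, beside -0.25 for all genes with more than 3 UMIs in a library.

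Tef in neutrophils had 31 UMIs, 19.6 CPM, in the vehicle library and 2 UMIs, 1.11 CPM, in the corticosterone library, with a log2 ratio of -4.14 (-7.25 to -2.16). Dbp had 18 against 3 UMIs (11.4 and 1.67 CPM) and a log2 ratio of -2.77 (-5.17 to -0.99), and Hlf had 20 against 4 UMIs (12.6 and 2.23 CPM) and a log2 ratio of -2.50 (-4.51 to -0.93). Nr1d2 had 36 against 9 UMIs (22.8 and 5.01 CPM) and a log2 ratio of -2.18 (-3.42 to -1.10). All 4 genes were thus far lower in the corticosterone library before the microglial RNA in these barcodes is considered. Nr1d1 had 5 UMIs against 0, or 1.89-fold lower with the 0 set to a floor of 3 UMIs, which stands for 1.67 CPM in the corticosterone library. Its counting interval reaches down to 1.04-fold. Per3 had 6 against 3 UMIs and a log2 ratio of -1.18 (-3.81 to 1.04), and Arntl had 7 against 15 UMIs (4.43 and 8.36 CPM) and a log2 ratio of 0.92 (-0.46 to 2.45).

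Per1 in neutrophils had 89 UMIs, 56.3 CPM (45.2 to 69.2), against 93 UMIs, 51.8 CPM (41.8 to 63.5). Its log2 ratio was -0.12 (-0.55 to 0.32), and it turned to 0.12 under TMM scaling. Per2 had 16 against 24 UMIs (10.1 and 13.4 CPM) and a log2 ratio of 0.40 (-0.57 to 1.41). For Per1 and for Per2 the interval does not overlap that of microglia in the same libraries. Cry1 had 27 against 15 UMIs (17.1 and 8.36 CPM) and a log2 ratio of -1.03 (-2.05 to -0.07).

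The neutrophil levels of several of these genes moved with the microglia markers in the same barcodes. Summed over Dbp, Tef, Nr1d2 and Per3, the vehicle neutrophils held 7.16 CPM (1.48 to 20.9) in the bin with the least microglia-marker RNA, then 30.8, 74.9 and 94.0 CPM (70.6 to 123) in the following bins, beside 117 CPM in vehicle microglia. Corticosterone neutrophils held 2.31, 11.7, 4.85 and 13.7 CPM, beside 23.1 CPM in corticosterone microglia. For this sum border macrophages gave no such gradient. They held 115, 68.0, 117 and 107 CPM in the vehicle bins and 31.3, 35.6, 30.4 and 32.1 CPM in the corticosterone bins. Arntl alone did vary in border macrophages, with 50.4, 41.8, 26.0 and 16.1 CPM in the corticosterone bins. In the vehicle bins it was at 16.0, 26.2, 18.7 and 18.0 CPM. In the lowest neutrophil bin, 99 vehicle and 87 corticosterone barcodes, Tef, Nr1d1 and Per3 had 0 UMIs in both libraries and Dbp had 1 in each, so no ratio can be given for them. Hlf and Nr1d2 had 2 UMIs each in the vehicle bin and 0 in the corticosterone bin. How much of the difference of these genes in the whole neutrophil class is neutrophil RNA was not tested.

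Per1, Per2 and Cry1 were still read in the neutrophils poorest in microglia markers. Per1 had 15 UMIs, 35.8 CPM, in the vehicle bin and 14 UMIs, 32.4 CPM, in the corticosterone bin, a log2 ratio of -0.14 (-1.30 to 1.01). Per2 had 5 against 11 UMIs and a log2 ratio of 1.09 (-0.55 to 2.97), and Cry1 had 9 against 2 UMIs and a log2 ratio of -2.21 (-5.46 to 0.06). None of these intervals lies wholly on 1 side of 0. The bins of Per1 were uneven in both libraries, with 35.8, 70.3, 36.1 and 78.3 CPM in vehicle and 32.4, 35.2, 170 and 39.7 CPM in corticosterone neutrophils. In the third bin, where 35 of the 93 corticosterone UMIs lay, Per1 was higher in the corticosterone library, with a log2 ratio of 2.23 (1.28 to 3.28), and in the bin with the most microglia-marker RNA it was lower, with one of -0.98 (-1.71 to -0.27). The bins were cut within each library and are not matched in their share of microglia-marker UMIs. The third held 1.87% in vehicle and 0.236% in corticosterone, the one with the most 2.75% and 1.62%, and the lowest 0.232% and 0.0662%. The bin ratios therefore do not compare like barcodes, and the whole-class ratio near 0 covers uneven bins. Under a fixed ceiling of 0.5% microglia-marker UMIs, chosen after seeing the data, Per1 had 15 UMIs in 117 vehicle neutrophils and 66 in 267 corticosterone neutrophils, a log2 ratio of 0.93 (0.11 to 1.85).

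**Figure D4:**
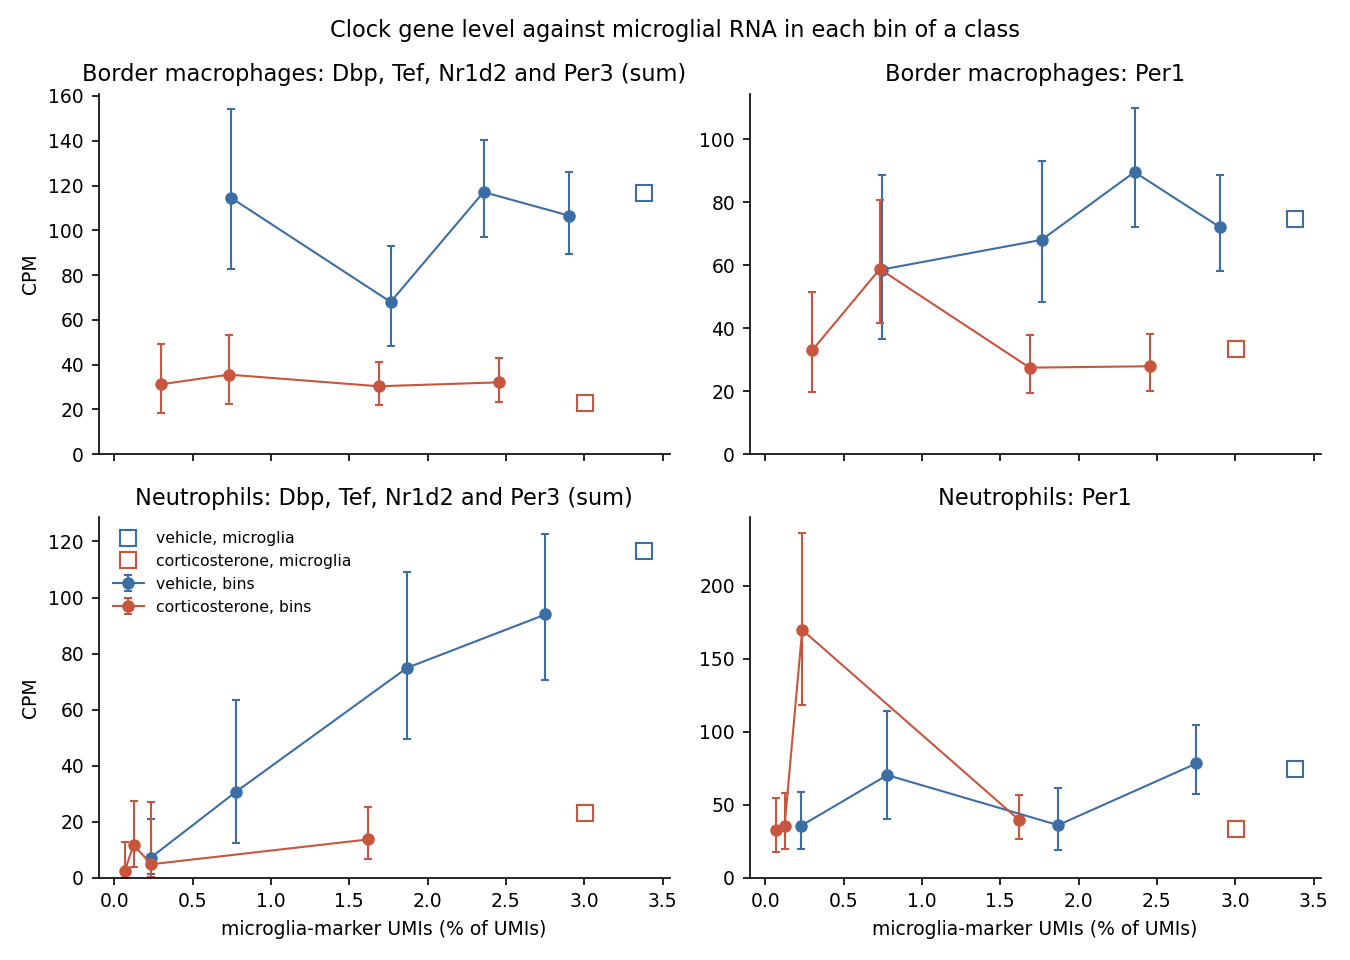
CPM of Dbp, Tef, Nr1d2 and Per3 summed (left) and of Per1 (right) in border macrophages (top) and neutrophils (bottom), plotted against the percent of UMIs from microglia markers in each bin of the class (filled circles with exact 95% counting intervals, blue vehicle, red corticosterone), with microglia as open squares. The summed level climbs from 7.16 to 94.0 CPM across vehicle neutrophils and stays between 68.0 and 117 CPM across vehicle border macrophages.

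Within a library, the order of the classes differed from gene to gene. In the vehicle library Dbp was at 26.2 CPM (20.95 to 32.4) in border macrophages and 23.1 CPM (21.5 to 24.7) in microglia, which do not differ beyond counting error, and at 11.4 CPM (6.74 to 18.0) in neutrophils. Vehicle neutrophils held 8 of the 10 genes below their microglial levels, Per3 at 0.351 times, Arntl at 0.448, Tef at 0.464, Nr1d1 at 0.484, Dbp at 0.493, Nr1d2 at 0.563, Per1 at 0.753 and Hlf at 0.961 times, beside 0.464 times for the median microglia marker. Nr1d1, Per3 and Arntl rest on 5, 6 and 7 UMIs there. For Hlf, Nr1d1 and Arntl the intervals overlap those of microglia, so these genes were not lower beyond counting error. Cry1 went the other way, at 2.65 times its microglial level in vehicle neutrophils and 5.86 times in corticosterone neutrophils. Per2 stood at 1.86 times in vehicle neutrophils, with overlapping intervals, and at 15.5 times in corticosterone neutrophils, 13.4 CPM (8.57 to 19.9) against 0.861 CPM (0.663 to 1.10) in microglia. The microglia markers stood at a median of 0.242 times in these corticosterone neutrophils. Hlf in the corticosterone library was at 0.175 CPM (0.0931 to 0.299) in microglia, 1.73 CPM (0.697 to 3.57) in border macrophages and 2.23 CPM (0.607 to 5.71) in neutrophils, so that microglia lay below both other classes, which did not differ beyond counting error.

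The other genes of the clock gave no call at the level and fold used here, while some below that level differed as much as some of the 10 described above. Of 14 further clock genes listed, 7 reached a mean of 5 CPM in microglia, and 0 of these were past 2-fold in either direction there, where 1.95% of all genes at that level were lower and 2.22% higher. In border macrophages and in neutrophils 7 genes each reached that level, and 0 of them were past 2-fold either, where 2.78% and 12.4% of genes were lower and 2.33% and 2.69% higher. With 7 genes, a count of 0 is near these shares. The highest log2 ratio among the 7 in microglia was that of Bhlhe41, a repressor at E-boxes, at 103 and 131 CPM with a log2 ratio of 0.35 (0.29 to 0.40). The lowest was that of Rora, an activator of Arntl, at 7.79 and 4.17 CPM with a log2 ratio of -0.90 (-1.14 to -0.66). In neutrophils, below that level, Rora had 12 against 1 UMI and a log2 ratio of -3.77 (-9.19 to -1.01). Clock, the partner of Arntl, was at 44.4 and 37.9 CPM with a log2 ratio of -0.23 (-0.32 to -0.14), and Nfil3, which competes with the PAR bZIP factors at D-boxes, at 6.91 and 7.03 CPM with a log2 ratio of 0.03 (-0.19 to 0.25). Below that level, and outside the naming rule, Cry2 had a log2 ratio of -1.93 (-2.35 to -1.52) and Ciart, a rhythmic repressor of the loop, one of -2.18 (-2.54 to -1.83). Timeless, which acts mainly at replication forks in mammals, had a log2 ratio of 1.62 (1.08 to 2.21). Clock, Nfil3, Cry2, Ciart and Timeless were singled out after their values were seen.

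Of 5 genes that cycle with the clock in many tissues, 1 of the 4 at a mean of 5 CPM, Tsc22d3, was lower by 2-fold or more in microglia, where 1.95% of all genes were. Tsc22d3, also known as Gilz and induced by glucocorticoids, was at 107 and 35.0 CPM with a log2 ratio of -1.61 (-1.68 to -1.53). In border macrophages its log2 ratio was -1.10 (-1.31 to -0.90), and in neutrophils -0.20 (-0.48 to 0.07), so that, as for Per1, the neutrophil ratio was the smallest in size. Usp2, a ubiquitin protease, had log2 ratios of -0.52, -0.90 and -1.60 in microglia, border macrophages and neutrophils, and Tspan4, a membrane protein of the tetraspanin family, of -0.74, -0.59 and -1.64. Both were lower by more than 2-fold in neutrophils, where 12.4% of all genes were lower by that much. Nampt, which makes the NAD precursor, was higher in each class, with log2 ratios of 0.52, 0.35 and 0.60. Wee1, a cell cycle kinase, had 18 UMIs or fewer in each class and library and intervals that spanned 0.

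The 6 listed glucocorticoid-responsive genes, Tsc22d3 among them, did not share 1 direction. In microglia 5 reached a mean of 5 CPM, of which 1, Tsc22d3, was lower by 2-fold or more and 0 higher, beside 1.95% and 2.22% of all genes. Klf9, at a mean of 4.99 CPM, missed that level narrowly and would have counted as higher. Fkbp5, which encodes a chaperone of the glucocorticoid receptor, was at 48.6 and 48.2 CPM in microglia with a log2 ratio of -0.01 (-0.09 to 0.07), and at -0.15 and -0.02 in border macrophages and neutrophils. Klf9, a transcription factor, had 71 and 596 UMIs in microglia and a log2 ratio of 2.04 (1.68 to 2.41), with 0.57 (-0.46 to 1.66) in border macrophages and 3.14 (0.33 to 8.58, from 1 and 10 UMIs) in neutrophils. Sgk1, a kinase, had log2 ratios of -0.61, -0.85 and -0.93 in the 3 classes, and Dusp1, a phosphatase of MAP kinases, of 0.45, 0.38 and 0.54. The receptor gene itself, Nr3c1, had log2 ratios of -0.31, -0.21 and -0.38.

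The genes whose ratios lay nearest to those of Dbp over the 3 classes, by Euclidean distance among 4789 genes with a mean of at least 20 CPM in each class, included Upk1b, Ecscr, Nav3 and Fcrls, at distances of 1.45 to 2.07. Upk1b had log2 ratios of -2.29, -2.37 and -2.50 in microglia, border macrophages and neutrophils, beside -3.60, -2.92 and -2.77 for Dbp. Ecscr had -1.86, -2.41 and -2.93. Fcrls, 1 of the markers used here for microglia, had -2.22, -1.42 and -3.08. Dbp itself, at means of 12.5, 14.8 and 6.53 CPM in the 3 classes, lies under the level asked of these genes. In vehicle neutrophils Upk1b, Ecscr, Nav3 and Fcrls were at 44.3, 195, 101 and 1345 CPM. In vehicle microglia they were at 104, 444, 186 and 2838 CPM. How much of their difference in neutrophils is neutrophil RNA was not tested. A distance over 3 ratios from the same 2 libraries only ranks the genes.

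Some of the 10 genes share exon bases with a neighbour in GENCODE M21 on GRCm38, and whether strand was used in counting was not given in the sources used here. Dbp (chromosome 7, 45705088 to 45710203, plus strand) shares 539 exon bases with Sphk2 on the opposite strand, and Nr1d1 (chromosome 11, 98767932 to 98775333, minus strand) shares 263 with Thra. Sphk2 had a log2 ratio of -0.20 (-0.29 to -0.10) in microglia and Thra one of -0.77 (-0.95 to -0.58), both smaller in size than the ratio of the clock gene beside them. Tef shares 193 exon bases with the antisense gene Gm17597, which had 9 and 2 UMIs in microglia, and Arntl shares 33 with Gm45355, which had 0 and 0. Reads in these shared stretches could have been given to either gene, so the levels of Dbp, Nr1d1, Tef and Arntl carry that uncertainty.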

How the data were processed

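The authors deposited 1 table per library, whose values are whole-number counts of UMIs, not normalized, for each feature in each barcode. Per the submitters' processing notes, reads were converted with bcl2fastq 2.19 and the genome was GRCm38; the aligner, the counter and the use of strand were not given in the sources used here. From the deposited counts, cells with at least 500 UMIs, 300 genes and at most 20% mitochondrial UMIs were kept, leaving 10500 of 10555 vehicle and 17883 of 18113 corticosterone barcodes, with 49325067 and 85103539 UMIs.

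Classes used marker lists. Microglia had at least 4 of 10 markers and 1% of UMIs from them, under 0.4% from neutrophil and 0.1% from macrophage markers, and no other class (at least 3 of its markers and 0.2% of UMIs). Border macrophages had at least 4 markers and 0.4% of UMIs, and neutrophils at least 5 and 2%. Barcodes meeting both of these rules (9 and 10) entered neither, and 1387 and 1146 cells were in none of the 3 classes. These thresholds were set after seeing the data. No doublet caller was run; alternatives without the 5% of cells with the most UMIs and with other class rules stand in for it.

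UMIs were summed per class and library and divided by the class total. Intervals are exact at 95% (Poisson for levels, conditional binomial for ratios, Clopper-Pearson for shares of cells) and cover counting error only. With 1 library per group no test between groups exists. A side at 0 was set to a floor of 3 UMIs, and no fold was given with both sides at or under it. The code was tested on simulated counts. The members and gene lists were chosen with earlier results of these data known. The naming rule took all 10 clock genes, other clock genes past 2-fold and the extremes at that level in microglia, the cycling and glucocorticoid lists, and the 5 genes nearest to Dbp, of which 1 is not reported here. Alternatives covered scaling (edgeR 4.0.16 TMM, median-of-ratios from DESeq2 1.42.0), cell filters, class rules, level, fold and thinning, with Python 3.11.15, scipy 1.17.1 and R 4.3.3.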

Additional observations from a re-analysis of the deposited data

How the results depend on the processing

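In microglia all 10 clock genes kept the sign of their log2 ratio in each of the 10 alternatives tried, of which the fixed ceiling leaves microglia as they were, with ranges of -3.71 to -3.46 for Dbp, -1.23 to -1.08 for Per1 and 0.60 to 0.77 for Arntl. In border macrophages 8 of 10 genes kept it in every alternative that gave a ratio, which for Cry1 were 8. In the lowest bin by microglia-marker share Hlf turned to 0.38 and Nr1d2 to 0.12, and under the fixed ceiling on that share, chosen after seeing the data, Hlf turned to 0.83. In neutrophils 8 of 10 genes kept their sign in every alternative that gave a ratio, 10 for Cry1, 7 for Nr1d1 and 8 for the others. The exceptions were Per1, from -0.15 to 0.93, and Per2, from -0.16 to 1.09, whose main intervals span 0. The lowest bin and the fixed ceiling, which select barcodes by microglia-marker share, gave ratios only for Per1, Per2 and Cry1. For the other genes the kept sign therefore covers only alternatives that do not select on that share. The median of the neutrophil clock genes turned to 0.72 under the fixed ceiling, where only 3 genes had a ratio.

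Counts of clock genes lower by 2-fold or more depended on the level required. At a mean of 20 CPM they were 3 in microglia, 2 in border macrophages and 0 in neutrophils. Only Tef, Nr1d2 and Per1 reached that level in microglia, these and Arntl in border macrophages, and Per1 in neutrophils. Unless stated, the share of all genes at the same setting is not given for the counts that follow. They describe the list only. The neutrophil count was 3 without the cells of most UMIs and 1 in the lowest bin and under the fixed ceiling. Of clock genes higher, microglia had 1 at a fold of 1.5. Border macrophages had 2 in the lowest bin and 2 under the fixed ceiling. Neutrophils had 1 at a fold of 1.5, with TMM or median-of-ratios scaling, with marker minimums doubled, without the cells of most UMIs and in the lowest bin. Under TMM and median-of-ratios scaling 5.20% and 4.88% of all neutrophil genes at a mean of 5 CPM were higher by 2-fold or more. Of the other clock genes, with no minimum level and genes at 0 UMIs in a library left out, microglia had 2 lower and 1 higher. Border macrophages and neutrophils had 1 lower each. With genes at 0 set to the floor, microglia had 3 lower and 1 higher. Of all genes with more than 3 UMIs in a library, 10.7% were lower and 5.22% higher in microglia. In border macrophages 7.1% and in neutrophils 16.3% were lower. At a fold of 1.5 each class had 1 lower. The cause was not tested. No paired analysis was possible because each group has 1 library, and for the same reason no replicate could be left out. Low counts limit the neutrophil values, several of which rest on 6 UMIs or fewer in a library.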
